A study of Magallana angulata with 3 samples.

Results

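The genes described here had low messenger RNA in the diploid oyster library DF and clearly more, at similar levels, in the triploid library T and the diploid library DM. They were chosen from the deposited expression values themselves. A member had a mean of at least 10 and under 1000 RPKM (reads scaled by the length of the gene and by the read total of its library) over the 3 libraries. On log2(RPKM + 1), its DF value was at least 1 below that of T and at least 1 below that of DM, and T and DM were less than 1 apart. Of 28027 genes in the files, 6046 had a mean in that window, and 76 met the rule, which is 1.26% of the window.

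The tissue was the adductor muscle of the Fujian oyster (Magallana angulata). DF is 1 library from diploid oysters, T is 1 library from triploid oysters, and DM is 1 library from diploid oysters. Diploids came from crosses between diploids. Triploids came from the same parents after a chemical treatment that kept the second polar body in the egg, and every animal was then held for a year under the same temperature and feeding. The labels do not say what F and M stand for, how many animals went into a library, or whether the T animals match DF or DM in that respect. The 3 libraries thus have no replicates, no spread between animals can be given, and no p-value is reported.

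The adductor muscle closes the shell against the springy ligament of the hinge. In oysters it has a translucent part of striated fibres, which contract fast, and an opaque part of smooth catch fibres, which hold the shell shut for long periods at little energy cost. Triploid oysters carry an additional set of chromosomes and usually make few gametes. The files give identifiers without names. Of the 28027 identifiers, 0 were found in the RefSeq gene table of this species. Hence no member can be given a name or a role here, and the labelled tissue could not be checked against muscle markers.

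Read totals recovered from the values were 1805591 in DF, 2137859 in T and 2057805 in DM. For a gene 1 kb long, a single read adds 0.554 RPKM in DF, 0.468 in T and 0.486 in DM. The most abundant gene of the series, which is no member, took 17.6% of the reads in DF, 23.9% in T and 33.8% in DM. Since RPKM divides by the total, such a gene lowers the values of the other genes of its library. The median difference over the 6046 genes of the window was 0.29 for DF minus T and 0.68 for DF minus DM on log2(RPKM + 1) as deposited. The medians changed with the scaling. They were 0.013 and -0.076 after median-of-ratios scaling, and 0.0014 and -0.069 after trimmed-mean scaling. With equal sums without the 20 most abundant genes they were 0.14 and 0.20. Median-of-ratios and trimmed-mean scaling bring such medians near 0 by construction, and what made the shift was not tested.

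The median level of the 76 members was 5.66 RPKM in DF, 40.6 RPKM in T and 36.1 RPKM in DM. Their levels ranged from 0 to 162 RPKM in DF, from 11.3 to 391 RPKM in T and from 9.16 to 339 RPKM in DM. The middle part of the members, between the quartiles, lay at 2.26 to 16.8 RPKM in DF, 19.9 to 88.2 in T and 19.3 to 60.2 in DM. The upper quartile in DF was thus below the lower quartile of either other library. On log2(RPKM + 1), DF minus T had a median of -2.00 (range -8.61 to -1.002), and DF minus DM a median of -1.85 (range -7.78 to -1.02). Against the medians of the window as deposited, these are differences of -2.29 and -2.53. The sign and the least size of these values are fixed by the rule, and both differences share the DF library, so that they describe the members and test nothing. In RNA from whole tissue, fewer cells of a type and less RNA per cell cannot be told apart.

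**Figure D1:**
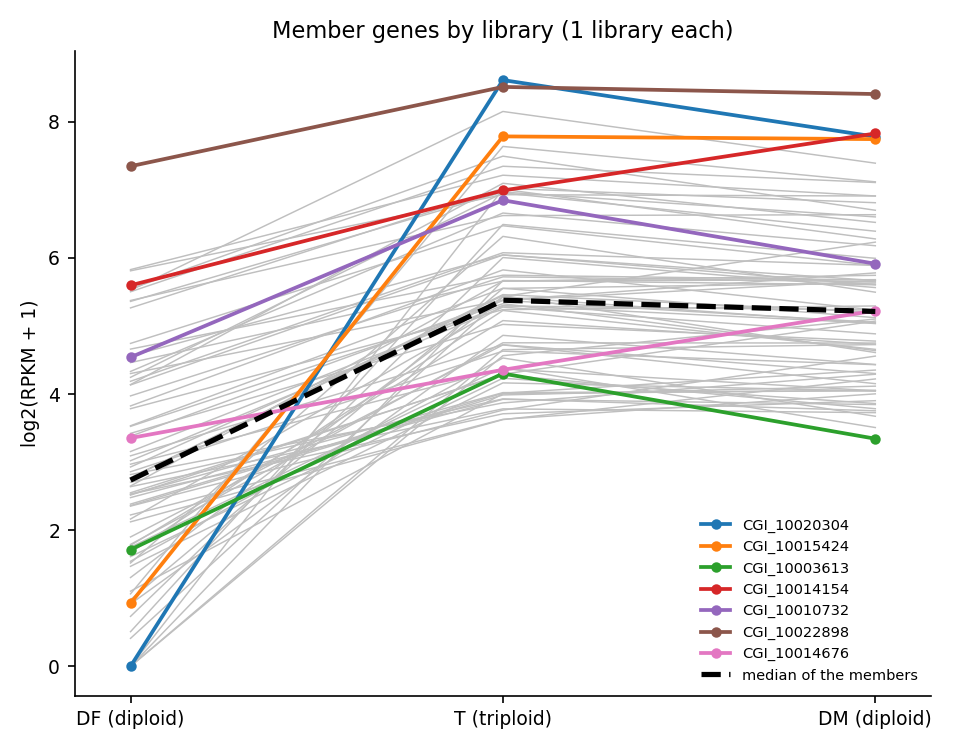
Expression of the 76 members as log2(RPKM + 1) on the vertical axis in the libraries DF, T and DM on the horizontal axis; each grey line is 1 gene, coloured lines are 7 genes named in the text, and the dashed line joins the medians. Every line is lowest in DF, as the rule requires, and DF values spread from 0 to 162 RPKM while T values start at 11.3 RPKM.

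The widest gap was that of CGI_10020304. It had 0 reads in DF, 391 RPKM in T from 895 reads (95% counting interval 366 to 417 RPKM) and 219 RPKM in DM from 483 reads (200.045 to 240). If 3 reads, or 1.55 RPKM, are taken as its upper limit in DF, its level there was at least 252-fold lower than in T and at least 141-fold lower than in DM. This gene also had the highest level of all members in T and the second highest mean, 203 RPKM. It was abundant in the triploid and in one diploid library and was not detected in the other diploid library at this depth.

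The next widest gap was that of CGI_10015424, with 0.901 RPKM in DF from 2 reads (95% counting interval 0.109 to 3.25), 220 RPKM in T from 578 reads (202 to 238) and 214 RPKM in DM from 541 reads (196 to 233). The ratio of DF to T was 0.0041 (0.0005 to 0.0149) and that of DF to DM was 0.00421 (0.00051 to 0.0153). As deposited, T and DM were within counting error of each other, at a ratio of T to DM of 1.03 (0.913 to 1.16). After median-of-ratios scaling, DF minus T was -6.95 and DF minus DM was -7.41 on log2(RPKM + 1), so that T then lay below DM. The interval was not recomputed under other scalings.

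Of the 76 members, 5 had 0 reads in DF, and these are named because they are few, after their values were seen. Besides CGI_10020304 they were CGI_10017002, CGI_10003383, CGI_10027322 and CGI_10017500. In the window as a whole, 1.26% of genes had 0 reads in DF. CGI_10017002 had 128 RPKM in T (187 reads) and 76.7 RPKM in DM (108 reads), so that DF was at least 52.6-fold below T and at least 31.6-fold below DM. CGI_10003383 had 49.9 RPKM in T (88 reads) and 47.7 RPKM in DM (81 reads), so that DF was at least 24.8-fold below T and 23.7-fold below DM. The remaining pair had lower levels in T and DM, which limits the gap that can be seen. CGI_10027322, at 24.2 RPKM in T and 25.5 RPKM in DM, had DF at least 18.02-fold below T and 19.01-fold below DM. CGI_10017500, at 22.7 RPKM in T and 33.4 RPKM in DM, had DF at least 18.9-fold below T and 27.8-fold below DM. These bounds rest on the same limit of 3 reads in DF for each gene. The 95% counting intervals of the ratios are wider and put the upper limit of DF over T at 0.00489 and of DF over DM at 0.00874 for CGI_10020304, so that gaps of 204-fold and 114-fold are within them.

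The member with the highest mean, 288 RPKM, was CGI_10022898, and its gap was among the smallest. It had 162 RPKM in DF from 200 reads (95% counting interval 140 to 186), 364 RPKM in T from 533 reads (334 to 397) and 339 RPKM in DM from 477 reads (309 to 371). The ratio of DF to T was 0.444 (0.376 to 0.524) and the ratio of DF to DM was 0.478 (0.403 to 0.565). Its depth places DF below both libraries beyond counting error, but a difference under 2-fold lies within the intervals.

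The members thus ran from genes with hardly a read in DF to genes a little past the 2-fold limit. In 12 of the 76, DF was at least 16-fold below both other libraries on log2(RPKM + 1). These 12 had at most 3 reads each in DF and 11 in all, against 2957 reads in T and 2207 in DM. Their median level was 0.377 RPKM in DF, 56.6 in T and 55.7 in DM. A further 16 members were at least 4-fold but under 16-fold below both, with medians of 2.45 RPKM in DF, 34.7 in T and 25.7 in DM. The other 48 members were at least 2-fold but under 4-fold below both, with medians of 10.1 RPKM in DF, 39.9 in T and 33.3 in DM. The class with the widest gaps also had the highest medians in T and DM, but the middle class had the lowest. Wide gaps on log2(RPKM + 1) need high levels in T and DM, so the way the classes were formed favours this. Across the 76 members, the rank correlation of the smaller of the gaps to T and DM with the mean RPKM of T and DM was 0.14. The order of the DF medians follows from the way the classes were formed.

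Over all members, DF had 1544 reads, T had 9944 and DM had 7945. These are 0.0855% of the DF total (95% counting interval 0.0813% to 0.0899%), 0.465% of the T total (0.456% to 0.474%) and 0.386% of the DM total (0.378% to 0.395%). The 5 members with the most T reads held 29.5% of the members' reads in DF, 31.3% in T and 30.1% in DM, so that a few abundant genes did not carry the sums alone. The median member had 8.5 reads in DF, 68 in T and 56.5 in DM. In DF, 27 members had at most 3 reads, 12 had 4 to 9, and 37 had at least 10. The share with at most 3 reads in DF was 35.5%, against 3.13% of the window, a contrast that the rule itself produces.

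Counting error was read off gene by gene. The 95% counting interval of the ratio lay below 1 for 69 members for DF over T and for 69 members for DF over DM. It lay below 1 against both for 67 of the 76. In the window, 4.73% of genes had DF below both libraries by this measure, with no limit of size and no limit on the distance between T and DM. For 32 members both intervals lay below 0.5. The members were chosen on these same values, so the intervals describe how many reads lie behind each ratio and give no independent support for it. The 9 members whose interval reached 1 had at most 7 reads in DF, 24 in T and 23 in DM. Of these, 5 reached 1 against both libraries, where a difference was not detectable with the recovered reads. The other 4 reached 1 against 1 library and lay below it for the other. Recovered reads are lower limits, so intervals of this kind may be too wide. These intervals cover the counting of reads only, and not differences between animals or library preparations.

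**Figure D2:**
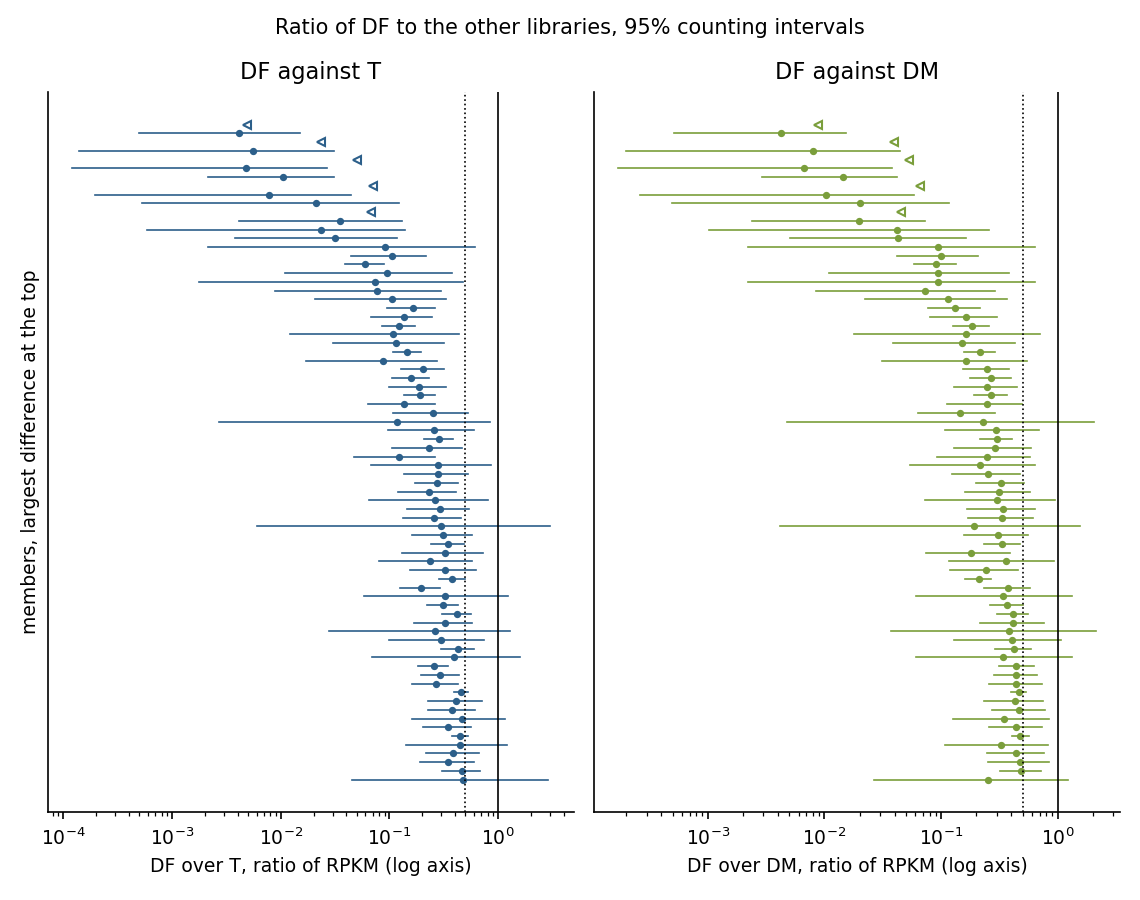
Ratio of RPKM in DF to RPKM in T (left) and in DM (right) on a log axis for the 76 members, 1 row each, ordered by the smaller of their 2 gaps with the widest at the top; points are ratios, bars are 95% counting intervals, open triangles are the upper ends of those intervals for the 5 members with 0 reads in DF, and the solid and dotted lines mark ratios of 1 and 0.5. The bars of 67 members end below 1 in both panels, and those of 32 members end below 0.5 in both.

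DF was at least 2-fold lower than T in 455 genes of the window (7.53%) and at least 2-fold lower than DM in 287 (4.75%). It was lower than both in 239 (3.95%), of which the 76 members are 31.8%. In another 134 of the 239 genes, T was at least 2-fold above DM, with median levels of 0.491 RPKM in DF, 84.7 in T and 15.96 in DM. In the other 29, DM was at least 2-fold above T, with medians of 0.566 RPKM in DF, 7.31 in T and 42.0 in DM. At most 3 reads in DF were found in 75.4% of the 134 and in 75.9% of the 29, against 35.5% of the members. After median-of-ratios scaling, 377 genes had DF at least 2-fold below both. T was at least 2-fold above DM in 138 of these and DM at least 2-fold above T in 40, while 199 were under 2-fold apart. The T-high set was the larger of the unlike sets in both scalings, but the alike set went from 31.8% of the DF-low genes to more than the unlike sets together. No test separates these sets, since their borders are limits of size on the same values.

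**Figure D3:**
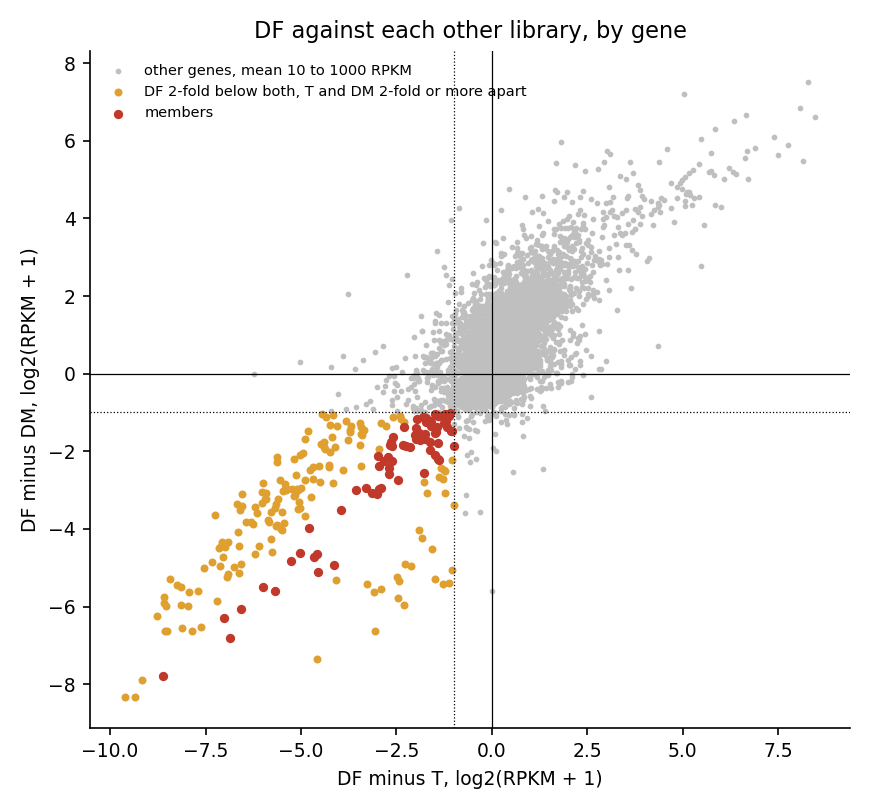
DF minus T (horizontal) and DF minus DM (vertical), both on log2(RPKM + 1), for the 6046 genes of the window; red points are the 76 members, yellow points are the other genes with DF at least 2-fold below both libraries, grey points are the rest, and dotted lines mark the limit of 1. On the deposited values shown, the medians of the window are 0.29 and 0.68, which move to 0.013 and -0.076 after median-of-ratios scaling, and the members lie along the lower left diagonal.

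Between T and DM, the members had a median difference of 0.24 on log2(RPKM + 1), T minus DM, against 0.44 over the window. T was above DM in 54 of the 76 members and in 73.7% of the window, so the share among the members, 71.1%, was near the background. This direction changed with how the libraries were scaled, as T was above DM in 19 members after median-of-ratios scaling, 20 after trimmed-mean scaling and 32 with equal sums without the 20 most abundant genes. As deposited, the larger of the T and DM values exceeded the smaller by a median of 1.32-fold in RPKM. It did so by under 1.2-fold in 27 members and by under 1.5-fold in 55. The counting interval of the ratio of T to DM held 1 in 52 members, lay above 1 in 19 and below 1 in 5. These intervals also use the deposited scaling and were not recomputed under the others, so the split of 19 and 5 is tied to it.

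As deposited, T lay farthest above DM in CGI_10003613 and CGI_10010732. CGI_10003613 had 2.28 RPKM in DF (7 reads), 18.7 RPKM in T (68 reads) and 9.16 RPKM in DM (32 reads), and its ratio of T to DM was 2.05 (95% counting interval 1.33 to 3.22). CGI_10010732 had 22.3 RPKM in DF (28 reads), 114 RPKM in T (170 reads) and 59.3 RPKM in DM (85 reads), with a ratio of T to DM of 1.93 (1.48 to 2.53). Both thus lay in steps from DF through DM to T, with DM nearer to T than the limit on the log2(RPKM + 1) scale. T lay farthest below DM in CGI_10014676 and CGI_10014154. CGI_10014676 rested on few reads, with 9.23 RPKM in DF (2 reads), 19.5 RPKM in T (5 reads) and 36.4 RPKM in DM (9 reads), and the counting interval of DF over T, 0.0451 to 2.89, held 1. CGI_10014154 was well covered, with 47.5 RPKM in DF (73 reads), 126 RPKM in T (230 reads) and 226 RPKM in DM (397 reads). Its ratio of T to DM was 0.558 (0.472 to 0.658), and its ratio of DF to DM was 0.210 (0.161 to 0.270). After median-of-ratios scaling, its DF minus T was -1.68 and its DF minus DM was -3.02. T and DM were then more than 1 apart, so that CGI_10014154 no longer met the rule, and the same held for CGI_10014676.

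The same rule was applied with each other library as the low one. T was lower alone in 85 genes of the window (1.41%) and DM in 720 (11.9%), against the 76 genes of DF (1.26%). In the opposite direction, DF was higher alone in 605 genes, T in 139 and DM in 31 as deposited. How the libraries were scaled changed the counts for DF and DM in both directions. With median-of-ratios scaling, DF was lower alone in 199 genes, T in 84 and DM in 228, and DF was higher alone in 317, T in 133 and DM in 263. DM was higher alone in 252 genes after trimmed-mean scaling and in 120 with equal sums without the 20 most abundant genes. Lower genes made up 11.2% of the genes with DF alone as deposited, 23.7% with equal sums without the 20 most abundant genes, 38.6% after median-of-ratios scaling and 38.7% after trimmed-mean scaling. The 76 members themselves kept DF at least 2-fold below both libraries in every one of these scalings. This outcome was largely set in advance, since each scaling divided DF by more than it divided T or DM. Median-of-ratios scaling divided DF by 1.29, T by 1.05 and DM by 0.740. Trimmed-mean scaling divided them by 1.29, 1.04 and 0.744, and equal sums by 1.17, 1.04 and 0.822. Of the 76, 69 met the whole rule after median-of-ratios scaling, which is 34.7% of the 199 genes, and 7 did not because T and DM were then at least 2-fold apart.

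**Figure D4:**
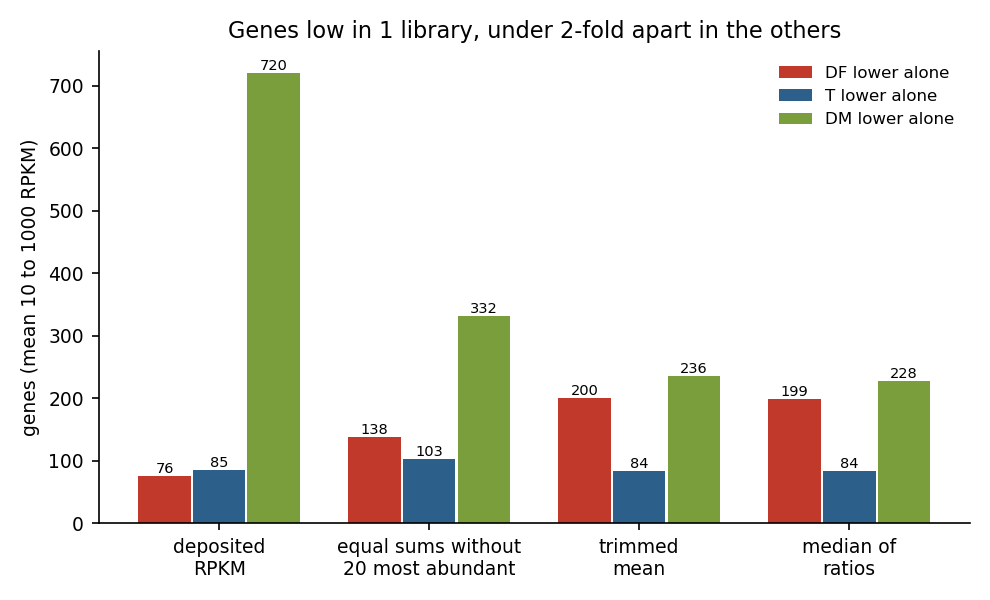
Number of genes (vertical axis) with DF, T or DM at least 2-fold below the other libraries, which were under 2-fold apart, on the deposited RPKM values and under 3 other scalings. As deposited the bars are 76, 85 and 720, and after median-of-ratios scaling 199, 84 and 228.

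The depth of the gap differed between these sets as deposited. DF was at least 16-fold below both other libraries in 12 of its 76 genes, T in 0 of its 85 and DM in 2 of its 720. DF was at least 4-fold below both in 28 of 76 genes (36.8%), T in 12 of 85 (14.1%) and DM in 98 of 720 (13.6%). The widest gap, as the smaller of the 2 differences on log2(RPKM + 1), was 7.78 for DF, 3.64 for T and 4.31 for DM. At most 3 reads in the low library were found in 35.5% of the DF genes, 12.9% of the T genes and 9.58% of the DM genes. Each set was chosen on the same values, so these contrasts are descriptions of 3 libraries. They were not recomputed under the other scalings, which changed the size of the DF and DM sets.

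Properties that the rule did not use directly were length and position in the list of identifiers. The length was recovered from the same RPKM values, so it is not independent of them. The recovered length, a coding length in multiples of 3 nt, had a median of 842 nt over the members (quartiles 414 and 1321) and 837 nt over the window (quartiles 483 and 1386). Members made up 1.44% of window genes under 500 nt, 1.15% of those from 500 to under 1500 nt and 1.29% of those of 1500 nt or more. By mean level they made up 1.23% of genes from 10 to under 30 RPKM, 1.43% of those from 30 to under 100 RPKM and 1.01% of those from 100 to under 1000 RPKM. Members were thus found at short and long lengths and at low and high levels in shares close to their 1.26% of the window. The mean level enters the rule directly and the length comes from the same values, so the shares by level and by length are a description only.

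Of the 76 members, 4 (5.26%) had a member as the next or previous identifier in number, against 47 of the 6046 window genes (0.777%). They form the pairs CGI_10026898 with CGI_10026899 and CGI_10010646 with CGI_10010647, named after their values were seen. CGI_10026898 had 1.86 RPKM in DF (1 read), 78.7 RPKM in T (50 reads) and 44.2 RPKM in DM (27 reads), and CGI_10026899 had 0.972 RPKM in DF (1 read), 46.0 RPKM in T (56 reads) and 48.6 RPKM in DM (57 reads). Both genes of this pair had a single read in DF. CGI_10010646 had 18 reads in DF, 52 in T and 48 in DM, and CGI_10010647 had 19, 58 and 49 in the same order. The recovered length was 1905 nt for each gene of this second pair, and its levels were 5.23 and 5.52 RPKM in DF, 12.8 and 14.2 RPKM in T, and 12.2 and 12.5 RPKM in DM. Whether the authors' counting split reads between near-identical copies is not given in the sources used here, so the second pair is uncertain as 2 separate genes. The files do not say what the order of identifiers stands for.

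At the limits of the rule, the nearest member had a smaller gap of 1.002 and the nearest gene outside one of 0.999 on log2(RPKM + 1). Within 0.1 of this limit there were 11 members inside and 11 genes outside. The distance between T and DM was 0.96 in the nearest member and 1.02 in the nearest gene outside. The lowest mean was 10.03 RPKM among the members and 9.72 RPKM in the nearest gene outside, and 0 genes that met the rest of the rule had a mean of 1000 RPKM or more.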

How the data were processed

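Per the labels' protocols, mRNA was taken with oligo(dT), and libraries from an Illumina gene expression kit were read on a HiSeq instrument. The authors deposited 1 RPKM value per gene and library. The submitters' processing notes list TopHat. Not given in the sources used here are its version, the read counter, the genome build and the gene annotation.

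Read totals were recovered as the whole numbers for which most low RPKM values gave coding lengths in multiples of 3 nt. This held for 90% of the low values used in DF, 87.7% in T and 87.3% in DM. All 19931 genes above 0 then had whole reads in the 3 libraries (within 1e-05 of a read, with an allowance for rounding in abundant genes). These reads make up 97.5% to 98.0% of each total. Where reads and length of a gene share a factor, it drops out, so both are lower limits. Intervals are 95% exact (Poisson for a level or sum, Clopper-Pearson for a ratio) and cover counting error only. The recovery and the size rule were tried on simulated data. The simulation used the recovered totals and lengths in multiples of 3 nt, so it cannot test that assumption.

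The members and lists were chosen with earlier results of these data known. With 1 library per label there is no test, and values are described on log2(RPKM + 1), which understates the change of low genes. The genes named were the 2 members with the widest smaller gap, the 2 with the highest mean, and the 2 each with T farthest above and below DM; others are marked as named after their values were seen. Calculations used Python 3.11.15, numpy 2.4.6, pandas 2.3.3 and scipy 1.17.1. Alternatives changed the pseudocount, scaling, limits or low library. Lists by gene product were not used, since the identifiers have no names.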

Additional observations from a re-analysis of the deposited data

How the results depend on the processing

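The count of 76 genes stayed within 1.5 times under 6 of 15 alternatives: pseudocounts of 0.1 (80) and 5 (61), no upper limit on the mean (76), T and DM under 1.5-fold apart (58), the counting interval required (67) and T as the low library (85). The last of these counts other genes, as do DM as the low library and DF above the others. Requiring the counting interval could only lower the count. The tally thus says little of how stable the 76 are, and every other scaling took the count outside this span. It was 199 after median-of-ratios scaling, 200 after trimmed-mean scaling and 138 with equal sums without the 20 most abundant genes. It was 320 with a mean of at least 1 RPKM, 360 with no limit on the mean, 149 with a fold limit of 1.5 and 28 with a fold limit of 4, where the limit itself admits more or fewer genes. With DM as the low library it was 720, and with DF above the others 605. The median of DF minus DM, -1.85 as reported, was -1.45 with a pseudocount of 5, -2.58 after median-of-ratios scaling, -2.58 after trimmed-mean scaling and -2.32 with equal sums without the 20 most abundant genes. The median of DF minus T was -1.70 with a pseudocount of 5. The median of T minus DM, 0.24 as reported, changed sign with the scaling, at -0.25, -0.24 and -0.095 for median-of-ratios, trimmed-mean and equal sums scaling. The scalings multiply whole libraries, and what made the libraries differ was not tested. Over the 15 genes named, 150 differences of DF from T or DM were recomputed. Of these, 144 stayed at least 1 below 0, 6 fell short of 1 with a pseudocount of 5, and 0 changed sign. A change of sign was not possible here. A pseudocount keeps the order of the values, and each scaling lowered DF relative to T and DM. The limit on T and DM was not part of this tally. After median-of-ratios scaling, DF minus T and DF minus DM were -1.68 and -3.02 in CGI_10014154. They were -1.26 and -2.62 in CGI_10014676, and -4.50 and -5.53 in CGI_10017500. T and DM were then at least 1 apart in these genes, which no longer met the rule. Depth limits members with few reads, since 3 reads in a gene of 1 kb stand for 1.66 RPKM in DF. No replicate could be left out, and the libraries could not be paired. No paired analysis was possible because a single library stands for each of DF, T and DM.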
